A study of Vigna unguiculata subsp. sesquipedalis with 24 samples.

Results

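Leaf and root of well-watered asparagus bean were compared on 12 of the 24 arrays of the series. The 6 leaf arrays and the 6 root arrays were chosen by the organ and the watering condition in their source labels, with 3 arrays for each combination of organ and line, and the organ difference was averaged over the 2 lines. B47 and B128 are landraces of Vigna unguiculata subsp. sesquipedalis, labelled anisohydric like and isohydric like respectively. The paper reports that B47 appeared the most responsive to drying soil among the lines it compared, and B128 the least. The label terms are not used in the paper's text, which proposes that B47 avoided dehydration most effectively. They were not tested here, and the paper's report is not to be read as backing for them. All 12 samples came from seedlings that were 16 days old when irrigation of the stressed group was stopped, and these control plants stayed irrigated until harvest on day 15. Leaf RNA was from side leaflets of 1 leaf position, the first trifoliate, so other leaves of the plant were not read. The other 12 arrays hold the same organs and lines after drought and are used here only for a side-by-side comparison. The labels call the 3 arrays of a group biological replicates, and since the 2 plants of a pot were pooled, an RNA sample represents a pot rather than a plant.

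Leaves capture light, fix carbon and export sugar, and they are sealed by a cuticle of wax. Roots take up water, nitrate, phosphate and metal ions, depend on imported sugar, and in legumes may also form nodules that house nitrogen-fixing bacteria. Growing and lignifying root tissues use wall-loosening proteins, peroxidases and laccases. The arrays read these differences as RNA levels only. A leaf and a root are mixtures of cell types, so fewer cells of a type and less RNA per cell cannot be told apart.

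Each array was a custom 1-colour NimbleGen array, read as 1 normalized intensity for each of 29471 unigenes, transcript sequences assembled from cDNA reads. The values are given below as log2 intensity, and a difference is leaf minus root on the log2 scale, so that 1 stands for a 2-fold change. Median array intensity lay between 1506 and 1581. Pearson's r, taken over unigenes (no independent replicates), was 0.960 to 0.993 between arrays of a group, 0.930 to 0.972 between the lines within an organ, and 0.676 to 0.751 between a leaf and a root array. Every array thus correlated more closely with all arrays of its own organ than with any array of the other.

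The organ labels were set beside marker unigenes. The markers were picked with earlier results of these data known, so their direction is no independent check of the labels. Light-harvesting and photosystem unigenes, the pigment-protein machinery of chloroplasts, were higher in leaf for 23 of 23 members. The mean over these 23 ranged from 11.44 to 12.55 on the leaf arrays and from 6.10 to 7.33 on the root arrays. In the other direction, all 9 root markers were higher in root, with array means of 12.54 to 13.50 in root and 6.28 to 6.58 in leaf. They were 5 peroxidase unigenes, the iron transporter IRT1, the iron-deficiency factor FIT, a high-affinity nitrate transporter component and MYB36. The iron, ion transport and organ identity lists that hold some of these markers also have members higher in leaf, given below. A pair of markers went against the leaf label. The 2 unigenes described as ribulose bisphosphate carboxylase, the carbon-fixing enzyme of leaves, had the low level in every leaf array. No description named leghemoglobin, the oxygen carrier of nodules. Descriptions covered only unigenes in the study's gene tables, so a leghemoglobin or another carboxylase unigene could be on the array without a name here. The nodule inception-like unigene UP12_25530 differed by -0.24 ± 0.21 (SE, 6 against 6 arrays) and was not called.

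Over all unigenes, 11004 (37.3%) differed between leaf and root by the limma test, where a call, here and below, required an FDR no higher than 0.01 and a change no smaller than 2-fold. Of these, 5602 (19%) were higher in leaf and 5402 (18.3%) were higher in root. Most differences also separated the arrays completely. All 6 leaf arrays lay above all 6 root arrays for 6814 unigenes (23.1%) and below them for 6829 (23.2%), together 46.3% of all, and 9738 of the calls (88.5%) were among these. Differences of at least 16-fold were found for 999 unigenes in the leaf direction and 1102 in the root direction, and 73 and 106 passed 256-fold. For scale, the difference between B128 and B47 over both organs was called for 767 unigenes (2.6%), and the median absolute log2 difference was 0.69 between organs and 0.18 between lines.

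Names were available for a subset only. Descriptions, mostly of the nearest Arabidopsis protein, come from the study's gene tables and cover 2206 of 2757 listed unigenes. Those unigenes were chosen by the study as drought-regulated, partly on these same well-watered arrays, so the lists below are not independent evidence of a direction. Of these, 699 unigenes (25.4%) were higher in leaf and 1095 (39.7%) were higher in root, with a median log2 difference of -0.50, whereas the median over all 29471 unigenes was -0.02. Every list is to be read against those table values. Unigenes that share a description may be pieces of 1 transcript or close copies, and are not counted as separate genes.

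**Figure D1:**
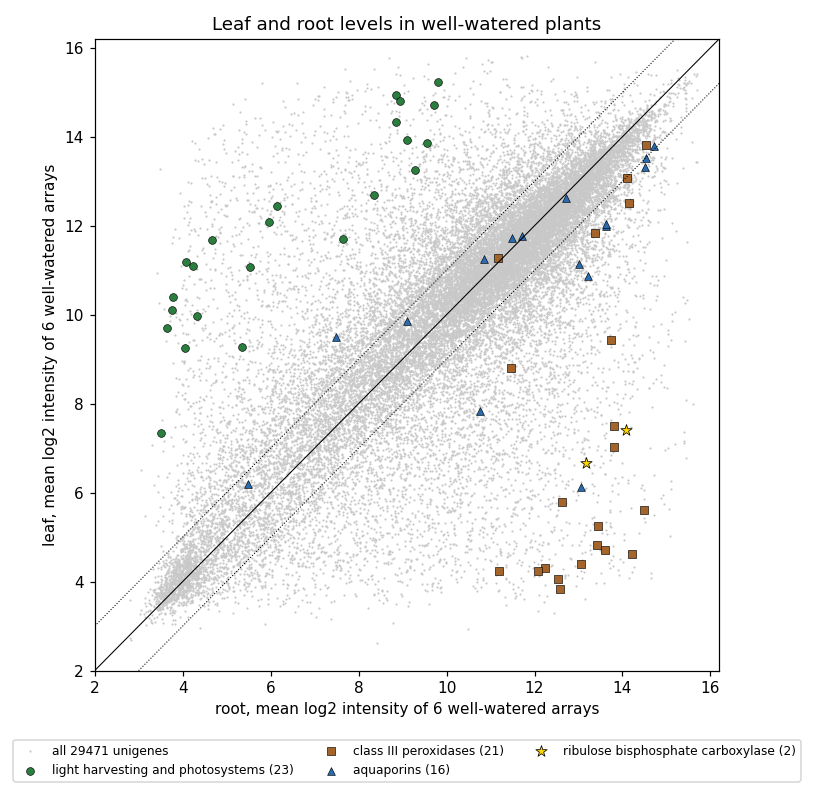
Mean log2 intensity of each of 29471 unigenes on the 6 well-watered root arrays (x axis) and the 6 well-watered leaf arrays (y axis). The solid line marks equal levels and the dotted lines a 2-fold difference. All 23 light-harvesting unigenes (green) lie above the lines, 19 of 21 peroxidases (brown) lie below, aquaporins (blue) lie nearer the diagonal apart from the delta tonoplast intrinsic protein, and the 2 ribulose bisphosphate carboxylase unigenes (stars) lie on the root side.

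Light capture was the most uniform leaf group, with 23 members higher in leaf, none in root, a median of 5.55 and no overlap for any member. Chlorophyll A/B binding protein 1, a major antenna protein, is shown by UP12_3346. Its lowest, median and highest log2 intensities were 14.95, 15.30 and 15.35 in leaf and 9.07, 9.40 and 11.18 in root, a difference of 5.43 ± 0.35 (SE, adjusted p = 9.9e-08). Leaf was thus high on every array, and the root arrays were spread more widely than the leaf arrays. The smallest difference in the group was that of UP12_11896, photosystem I subunit psaK, at 3.84 ± 0.21. The largest belonged to UP12_9231, chlorophyll a-b binding protein 4, at 7.11 ± 0.24. For that unigene the 3 B128 leaf arrays (12.81, 12.80 and 11.88) lay above the 3 B47 leaf arrays (9.70, 10.62 and 9.31), with all root arrays between 3.81 and 4.27.

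Carbon fixation and chloroplast machinery leaned to leaf, with a pair of unigenes opposed. Of 17 members, 10 were higher in leaf and 2 in root, with a median of 1.12. Sedoheptulose-1,7-bisphosphatase (UP12_11637), a regulated enzyme of the Calvin cycle, measured 13.71, 14.25 and 14.32 in leaf (lowest, median, highest) against 6.01, 6.64 and 7.28 in root, a difference of 7.58 ± 0.21. Thioredoxin F-type 1 (UP12_21031), which activates Calvin cycle enzymes in the light, differed by 6.15 ± 0.20, and the RbcX chaperonin-like UP12_4714, an assembly factor for ribulose bisphosphate carboxylase, by 5.37 ± 0.12. The import and ribosome components TOC75-3, TIC110, Tic22-like and plastid ribosomal protein S21 were not called, with differences from -0.87 to 0.57.

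The members in the root direction were the unigenes described as ribulose bisphosphate carboxylase. Other carboxylase unigenes could be on the array without a description here, so these values do not give the level of all its transcripts. For UP12_16180, described as small chain 1A, the lowest, median and highest values were 5.62, 6.68 and 7.87 in leaf and 12.74, 13.11 and 13.73 in root. For UP12_13963 they were 5.46, 7.49 and 8.99 in leaf and 13.73, 13.99 and 14.57 in root. Neither overlapped between organs, and the differences were -6.51 ± 0.33 (adjusted p = 1.72e-08) and -6.66 ± 0.46 (adjusted p = 2.04e-07). In both lines the difference had the same sign, at -6.64 and -6.62 in B47 and -6.38 and -6.70 in B128. Under drought the same unigenes differed by -0.23 and -0.07 and were not called.

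The list for wax, cutin and lipid transfer held 42 unigenes, chosen by description and not all tied to the leaf surface. Of these 22 were higher in leaf and 7 in root, with a median of 1.80. Several wax genes were among the leaf-higher members. UP12_22889, 3-ketoacyl-CoA synthase 3, from the family that elongates fatty acids for wax, measured 11.02, 11.96 and 13.01 in leaf and 4.78, 5.62 and 7.10 in root, and differed by 6.33 ± 0.35. The transporter ABCG12 (UP12_12120), which exports wax to the Arabidopsis cuticle, differed by 5.39 ± 0.19, and CER1 (UP12_4568), an enzyme of alkane formation, by 2.78 ± 0.20. On the root side stood 3 lipid-transfer-like proteins, UP12_4251, UP12_16255 and UP12_42, with differences of -9.28 ± 0.22, -8.75 ± 0.18 and -8.17 ± 0.24. The CUT1-type condensing enzyme UP12_11245 was also higher in root, at -4.34 ± 0.28.

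Regulators of light response and flowering were higher in leaf for 13 of 19 members and higher in root for 3, with a median of 2.10. TWIN SISTER of FT (UP12_21504), a relative of the mobile flowering signal, had values of 12.56, 12.99 and 13.95 in leaf and 5.05, 5.12 and 5.31 in root. The difference was 7.97 ± 0.13 (adjusted p = 3.75e-12), and the root arrays lay close together. BROTHER of FT and TFL 1 (UP12_22088) differed by 7.51 ± 0.14 and FLOWERING LOCUS T (UP12_4063), the flowering signal made in leaves, by 4.47 ± 0.16. In contrast the B-box factor BBX21 (UP12_1232), a regulator of light responses, was higher in root at -4.66 ± 0.14, as were B-box 32 (UP12_21506) at -2.14 ± 0.15 and the clock component APRR1 (UP12_5157) at -1.06 ± 0.14. The APRR1 call was close to the fold threshold and was lost without B47 leaf replicate 1 (-0.98) or B47 root replicate 1 (-0.99).

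Among the 12 named unigenes with the largest leaf differences, 4 were cytochrome P450s, oxygenases of plant secondary metabolism. Those described as CYP83A1 (UP12_15041 and UP12_26277) differed by 9.52 ± 0.52 and 9.33 ± 0.49, an unspecified P450 (UP12_29688) by 9.25 ± 0.46, and CYP83B1 (UP12_15233) by 8.52 ± 0.37. In UP12_15041 the leaf arrays measured 13.14, 14.32 and 14.68 and the root arrays 3.60, 4.35 and 7.16. Pheophytinase (UP12_4649), which removes phytol during chlorophyll breakdown, had leaf values of 12.40, 12.55 and 12.65 against 3.98, 4.72 and 5.52, a difference of 7.91 ± 0.17. Germin-like proteins, a family of secreted proteins, made up 2 more of the 12 (UP12_7680 and UP12_3763), at 9.06 ± 0.24 and 8.04 ± 0.16. Over all unigenes, those with the largest leaf differences had no description: UP12_4845 differed by 9.80 ± 0.26 and UP12_5297 by 9.67 ± 0.13.

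Sugar transport and starch divided evenly, with 9 of 26 higher in leaf and 9 in root and a median of 0.28. SWEET12 (UP12_17067), a sucrose exporter that loads the phloem in Arabidopsis leaves, measured 12.83, 13.07 and 13.33 in leaf and 3.82, 4.44 and 5.53 in root, a difference of 8.56 ± 0.25 (adjusted p = 2.33e-10). A beta-amylase (UP12_6469), an enzyme of starch breakdown, differed by 6.58 ± 0.16. Sucrose synthases, which split imported sucrose, were all on the root side: UP12_14364 differed by -4.55 ± 0.19, UP12_10000 by -3.98 ± 0.15, UP12_25038 by -2.88 ± 0.13 and UP12_2500 by -2.18 ± 0.20. In UP12_14364 the leaf arrays measured 8.81, 9.80 and 10.76 and the root arrays 14.10, 14.26 and 14.57, without overlap. Another SWEET12 unigene, UP12_6225, was not called at 3.13 ± 1.36, since B128 leaf replicate 2 alone reached 14.33 while the other leaf arrays lay between 4.37 and 7.58, and it was called at 1.59 without that array (limma's adjusted p = 0.00199).

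**Figure D2:**
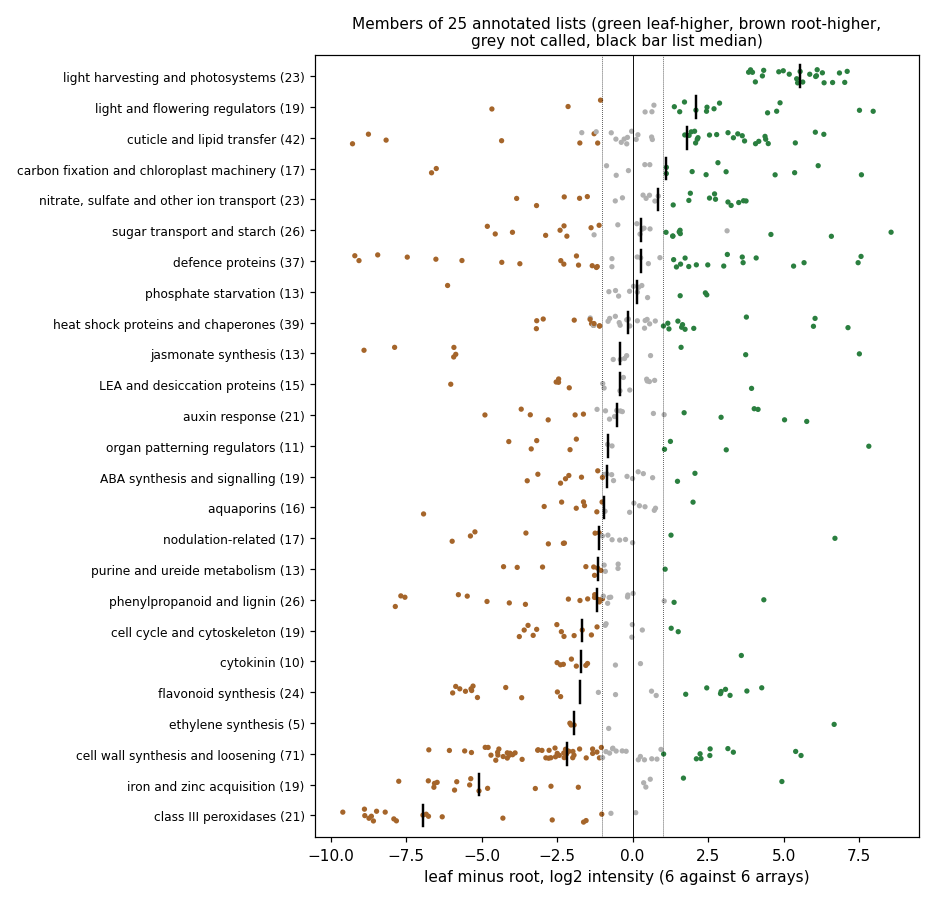
Leaf minus root difference (x axis, log2 intensity, 6 against 6 arrays) of every member of 25 lists, ordered by list median (black bars, points green where called leaf-higher, brown where root-higher, grey where not called), with the number of members in brackets. Vertical positions within a list are spread only for legibility. Light harvesting has the highest median (5.55) and class III peroxidases the lowest (-6.95).

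Class III peroxidases, secreted enzymes that polymerize lignin and modify walls, were the most uniform root group. None was higher in leaf and 19 of 21 were higher in root, with a median of -6.95. The strongest was peroxidase 1 (UP12_19923), with values of 3.98, 4.50 and 5.72 in leaf and 13.81, 14.19 and 14.83 in root, a difference of -9.60 ± 0.26 (adjusted p = 1.26e-10). UP12_3162 and UP12_18537, both described only as peroxidase, differed by -8.89 ± 0.25 and -8.87 ± 0.13, and peroxidase 3 (UP12_3450) by -8.74 ± 0.13. The members not called were a peroxidase 73 (UP12_5435) at -0.72 ± 0.12 and a peroxidase 52 (UP12_749) at 0.10 ± 0.65. Other peroxidase 52 unigenes did not share that level of difference, at -8.59 ± 0.19 for UP12_10673 and -6.84 ± 0.64 for UP12_16084.

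Iron and zinc acquisition was root-directed for 14 of 19 members, with 2 higher in leaf and a median of -5.09. Iron-deficient roots of dicots reduce ferric iron at the surface, take it up through the transporter IRT1 and induce the step through the factor FIT. The transcription factor ORG2 (UP12_2796), which acts with FIT in Arabidopsis, measured 3.61, 3.72 and 4.52 in leaf and 10.95, 11.55 and 12.25 in root, a difference of -7.75 ± 0.25 (adjusted p = 4.14e-10). FIT itself (UP12_19468) differed by -6.48 ± 0.37 and Fe(2+) transport protein 1 (UP12_16535) by -5.40 ± 0.27. All 3 nicotianamine synthases, which make a metal chelator, were higher in root, at -4.81 ± 0.55, -5.36 ± 0.37 and -6.57 ± 0.33.

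The zinc-regulated transporters were not uniform. ZIP10 (UP12_16567) differed by -6.77 ± 0.26 and zinc transporter 2 (UP12_2508) by -6.59 ± 0.51. Zinc transporter 5 (UP12_22289) and 1 of the 2 zinc transporter 1 unigenes (UP12_15724) were not called, at 0.36 ± 0.32 and 0.44 ± 0.34. The 2 members higher in leaf were ferric reductases, FRO5 (UP12_5849) at 4.94 ± 0.36 and FRO7 (UP12_12379), a chloroplast form in Arabidopsis, at 1.68 ± 0.34. FRO5 measured 11.62, 11.87 and 12.24 in leaf and 5.82, 7.14 and 8.09 in root.

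Lignin and cell wall genes leaned to root. Of the 26 phenylpropanoid and lignin unigenes, 16 were higher in root and 2 in leaf, with a median of -1.19, and of the 71 for wall synthesis and loosening, 47 were higher in root and 10 in leaf, with a median of -2.19. The 4 phenylalanine ammonia lyases, which open the pathway, ranged from -0.97 to -1.49. Of these 3 were called, UP12_12114 was no longer called without B128 leaf replicate 1 (-0.97), and the uncalled UP12_4458 was called without B128 leaf replicate 2 (-1.14) or 3 (-1.08). A cinnamyl alcohol dehydrogenase 5 unigene (UP12_27004) differed by 0.02 ± 0.11 with overlapping arrays. A dirigent-like protein (UP12_2785), from a family that directs monolignol coupling, measured 5.27, 6.41 and 7.03 in leaf and 13.73, 14.25 and 15.10 in root, a difference of -7.86 ± 0.30. Laccase 7 (UP12_9208), of the family that oxidizes monolignols, differed by -7.54 ± 0.28 and a laccase 17 (UP12_23374) by -5.77 ± 0.32. Ferulic acid 5-hydroxylase 1 (UP12_18514), which leads to syringyl lignin and sinapate esters, opposed them at 4.35 ± 0.23.

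The 6 markers of xylem, unigenes for laccases 4 and 17 and the secondary-wall cellulose synthases 4 and 7, were all higher in root with a median of -3.17, and they are also members of these lists. Their array means ranged from 6.23 to 9.42 in leaf and from 10.79 to 11.87 in root. The part of the xylem share in the lignin and wall lists was not tested. Xyloglucan endotransglucosylases, which loosen and rejoin wall polymers, reached -4.89 ± 0.25 (UP12_20714), and expansin A17 (UP12_20742) differed by -6.75 ± 0.47, with 3.50, 4.12 and 4.70 in leaf and 8.99, 10.91 and 12.96 in root. On the leaf side, all 5 unigenes described as cellulose synthase-like protein B4 were called, with differences of 2.26 to 5.58.

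Aquaporins, the water channels of membranes, were higher in root for 8 of 16 members and in leaf for 1, with a median of -0.96. A delta tonoplast intrinsic protein (UP12_10083) stood apart. It measured 3.57, 6.66 and 8.02 in leaf and 11.92, 13.13 and 13.64 in root, a difference of -6.93 ± 0.41 (adjusted p = 5.19e-08). The plasma membrane channels had smaller differences. PIP1-3 (UP12_24860) differed by -2.35 ± 0.15, 3 of the 4 PIP2-2 unigenes by -1.60 to -1.87 and the PIP2-4 unigenes by -1.01 ± 0.11 and -1.19 ± 0.13, none with overlap. The first of that pair (UP12_7565) lay at the fold threshold, and without any 1 of 6 arrays (B128 leaf replicate 1, B47 leaf replicates 1 and 3, B128 root replicates 1 and 2, and B47 root replicate 2) it fell short of 2-fold and was not called (-0.95 without B47 leaf replicate 1). The remaining PIP2-2 unigene (UP12_10224) overlapped fully, with 11.61, 11.70 and 12.09 in leaf and 11.24, 11.75 and 12.32 in root. The NOD26-like NIP1;2 (UP12_22099) was higher in root at -2.93 ± 0.18. NIP6-1 (UP12_5950), a boron channel in Arabidopsis, was the member higher in leaf at 2.00 ± 0.51, with overlapping arrays, and this call did not survive the removal of any of 8 single arrays (all but B128 leaf replicate 1, B47 leaf replicate 2, B128 root replicate 3 and B47 root replicate 2), where limma's adjusted p lay between 0.0107 and 0.013.

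Among the other ion transporters 11 of 23 were higher in leaf and 5 in root, with a median of 0.85. High-affinity nitrate transporter 3.1 (UP12_3349), a partner protein for nitrate uptake, measured 12.49, 13.11 and 13.28 in leaf and 15.01, 15.22 and 15.46 in root, a difference of -2.27 ± 0.13. Molybdate transporter 1 (UP12_3862) was higher in root at -3.84 ± 0.23. On the leaf side stood sulfate transporter 1.3 (UP12_17449), a phloem carrier in Arabidopsis, at 3.67 ± 0.15, and magnesium transporter MRS2-2 (UP12_26514) at 3.76 ± 0.25. The 2 nitrate reductase unigenes were not called, at 0.85 ± 0.18 and 0.34 ± 0.17.

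Phosphate starvation genes were mostly not called, with 3 of 13 higher in leaf, 1 in root and a median of 0.16. A single array stood apart here. For SPX domain-containing protein 1 (UP12_21264), a phosphate sensor, B128 leaf replicate 1 measured 10.37 while the other 5 leaf arrays lay between 13.34 and 13.93 and the root arrays between 12.05 and 13.38. The same array was the low one for SPX domain protein 3 (UP12_3682) at 10.14 and purple acid phosphatase 8 (UP12_3338) at 10.39. Purple acid phosphatase 27 (UP12_17665) was the member higher in root, at -6.13 ± 0.16, and 2 of 3 purple acid phosphatase 10 unigenes were higher in leaf, at 2.46 ± 0.22 and 1.57 ± 0.20.

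**Figure D3:**
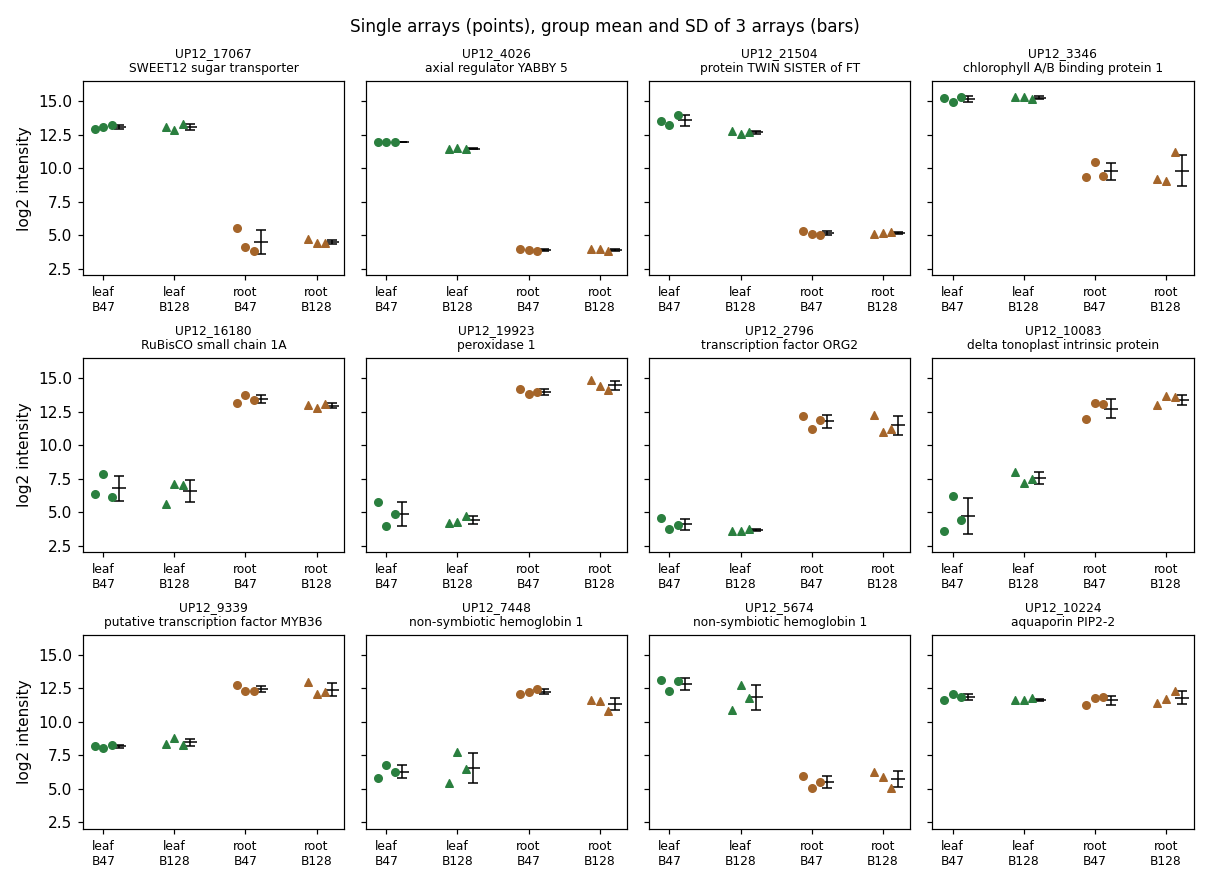
Log2 intensity of 12 unigenes on each well-watered array, with leaf in green, root in brown, B47 as circles and B128 as triangles. Horizontal bars give the group mean and vertical bars the SD of 3 arrays. SWEET12, YABBY 5 and TWIN SISTER of FT are high on all leaf arrays, peroxidase 1 and ORG2 on all root arrays, and the PIP2-2 unigene UP12_10224 overlaps between organs.

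Flavonoid synthesis had members in both directions, with 12 of 24 higher in root, 8 in leaf and a median of -1.76. Chalcone synthase opens the flavonoid pathway. Of 9 unigenes with that enzyme in their description, 7 were higher in root, with differences of -5.29 to -5.96, and 1 in leaf (UP12_19862, 1.76 ± 0.49). The call of UP12_19862 was lost without any 1 of 10 arrays (all but B128 leaf replicate 1 and B47 leaf replicate 2), where limma's adjusted p lay between 0.0133 and 0.0199. UP12_14338 measured 6.08, 9.79 and 10.58 in leaf and 14.18, 14.47 and 14.84 in root, a difference of -5.36 ± 0.46 with no overlap. Dihydroflavonol reductase (UP12_28144) differed by -5.14 ± 0.32. Flavone synthase, which forms flavones, and flavonoid 3'-monooxygenase, which hydroxylates flavonoids, were on the leaf side, at 4.28 ± 0.27 (UP12_17082) and 2.91 ± 0.14 (UP12_4184).

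Organ identity genes were few and split, with 4 of 11 higher in leaf and 5 in root. YABBY 5 (UP12_4026), a factor of leaf polarity, measured 11.44, 11.75 and 11.99 in leaf and 3.83, 3.91 and 3.99 in root, a difference of 7.82 ± 0.07 (adjusted p = 2.54e-13). MYB36 (UP12_9339), which directs the Casparian strip in the Arabidopsis endodermis, was higher in root by a difference of -4.10 ± 0.17, and scarecrow-like 1 (UP12_1713) by -3.36 ± 0.21. Cell division genes leaned to root, with 12 of 19 higher there, 2 higher in leaf and a median of -1.67. Cyclin-dependent kinase B2-2 (UP12_2637), a mitotic kinase of plants, measured 7.90, 8.02 and 8.29 in leaf and 11.49, 11.82 and 12.23 in root, a difference of -3.76 ± 0.14, and aurora-1 (UP12_16279) differed by -3.30 ± 0.20. The leaf-higher members were beta-tubulins, UP12_15338 and UP12_15339, at 1.51 ± 0.31 and 1.28 ± 0.21.

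Hormone genes were counted by hormone. Cytokinin members were higher in root for 7 of 10 and in leaf for 1, with the receptor CRE1b (UP12_1490) at -2.50 ± 0.16 and the response regulators ARR5 and ARR6 at -1.50 ± 0.22 and -1.55 ± 0.17. One cytokinin-activating phosphoribohydrolase (UP12_25118) opposed them at 3.60 ± 0.14. Auxin response members were 6 of 21 in each direction, close to the 25.4% of the tables on the leaf side and below their 39.7% on the root side. The SAUR unigene UP12_21385, of a family of growth-related auxin response genes, measured 10.79, 12.18 and 12.48 in leaf and 5.17, 5.79 and 7.12 in root, a difference of 5.77 ± 0.25, whereas the SAUR unigene UP12_1225 differed by -4.89 ± 0.34.

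Abscisic acid (ABA), the hormone that closes stomata, had receptors in both directions. Of 19 members of its synthesis and signalling 8 were higher in root and 2 in leaf, with a median of -0.85. The root count was close to the 39.7% of the tables, and the leaf count was below their 25.4%. By line, 5 were higher in root and 2 in leaf in B47, with a median of -0.06. In B128 these counts were 10 and 2, with a median of -1.54. PYL5 (UP12_29616), PYL4 (UP12_27319) and PYL1 (UP12_24309) were higher in root at -3.49 ± 0.25, -2.22 ± 0.25 and -2.11 ± 0.17, and PYL2 (UP12_6305) was higher in leaf at 1.48 ± 0.28. PYL5 measured 8.53, 9.95 and 10.67 in leaf and 12.66, 13.47 and 13.67 in root, without overlap. In jasmonate synthesis 3 of 13 were higher in leaf and 5 in root, both close to the shares of the tables. Allene oxide synthase (UP12_13515), the step that commits to jasmonate, differed by 7.51 ± 0.20, while lipoxygenase 1 (UP12_2663) differed by -8.90 ± 0.26 and 12-oxophytodienoate reductase 1 (UP12_10313) by -5.93 ± 0.32.

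Purine and ureide metabolism leaned to root. Ureides, made from purines, carry fixed nitrogen out of the nodules of cowpea and soybean. Of 13 purine and ureide unigenes 8 were higher in root and 1 in leaf, with a median of -1.16. The largest differences were those of the 2 alanine:glyoxylate aminotransferase 3 unigenes, at -4.28 ± 0.30 and -3.82 ± 0.33, enzymes that transfer an amino group to glyoxylate. Allantoinase (UP12_5366), which turns allantoin into allantoate, differed by -2.99 ± 0.74 with overlap, since B128 leaf replicate 2 measured 11.21 and the other leaf arrays 6.24 to 7.35. Its call was lost without B128 leaf replicate 3, B128 root replicate 2 or B47 root replicate 2, where limma's adjusted p lay between 0.0101 and 0.0111. Allantoate amidohydrolase (UP12_28812), of ureide breakdown, was higher in leaf at 1.08 ± 0.15, or 0.99 and not called without B128 leaf replicate 3. Nodulation-related descriptions were higher in root for 9 of 17 and in leaf for 2. Of the 9, 7 were described as MtN21/EamA-like transporters or nodulin-like proteins, and the MtN21 family is also found in plants without nodules. The list also holds UP12_5674, higher in leaf, and UP12_7448, higher in root, both described as a non-symbiotic hemoglobin.

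Defence proteins and heat shock proteins had members in both directions. Of 37 defence unigenes 16 were higher in leaf and 15 in root, with a median of 0.26. Of 39 heat shock proteins and chaperones 12 were higher in leaf and 10 in root, with a median of -0.14, and the leaf-higher members with the largest differences were DnaJ-domain proteins (UP12_4350 at 7.13 ± 0.19). Of 15 late embryogenesis abundant (LEA) and desiccation unigenes 1 was higher in leaf and 5 in root, with a median of -0.42. By line these counts were 3 and 3 in B47, and 1 and 7 in B128. Em-like protein GEA6 (UP12_2374), a seed desiccation protein in Arabidopsis, measured 3.99, 4.18 and 8.15 in leaf and 10.24, 11.00 and 11.66 in root, a difference of -6.03 ± 0.57.

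Some unigenes with one description took opposite sides. Of 200 descriptions with at least 2 called unigenes, 37 (18.5%) had called members in each direction. Non-symbiotic hemoglobin 1, an oxygen- and nitric oxide-binding protein found in most plants, is an example. UP12_5674 measured 10.92, 12.55 and 13.13 in leaf and 5.06, 5.72 and 6.24 in root, a difference of 6.70 ± 0.32. UP12_7448 measured 5.42, 6.39 and 7.73 in leaf and 10.79, 11.87 and 12.45 in root, a difference of -5.38 ± 0.34. The groups did not overlap for either unigene. MLP-like protein 43, of the major latex protein family, had 2 unigenes higher in leaf (7.57 ± 0.75 and 7.47 ± 0.74) and 3 higher in root (-8.45 ± 0.26, -9.07 ± 0.27 and -9.20 ± 0.29), and the hexose transporter-like UP12_7076 and UP12_2613 differed by 4.58 ± 0.22 and -4.81 ± 0.37.

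The root-higher unigenes with the largest differences had varied functions. Apyrase 2 (UP12_2872), an enzyme that breaks down nucleotides, measured 3.61, 3.94 and 4.40 in leaf and 13.06, 13.35 and 13.83 in root, a difference of -9.44 ± 0.15. A HAD-type acid phosphatase (UP12_20556) differed by -9.33 ± 0.13, the subtilase SBT5.2 (UP12_4908) by -9.04 ± 0.35 and a cytochrome P-450 (UP12_24186) by -9.93 ± 0.40. Every root array lay above every leaf array for these 4 unigenes, which was a condition for naming them here. The largest root differences over all unigenes belonged to UP12_28406 and UP12_861, at -10.57 ± 0.19 and -10.45 ± 0.18, which have no description in the tables used here.

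The organ difference was also taken within each line. In B47, 5176 unigenes (17.6%) were higher in leaf and 5074 (17.2%) in root. In B128, 5693 (19.3%) were higher in leaf and 5224 (17.7%) in root. Both lines called 8218 unigenes in the same direction, 4284 of them leaf-higher, and 23 in opposite directions. Of the 2009 called only in B47, 89.3% had the same sign in B128, and 91 passed the test of the difference between lines, as did 229 of the 2676 called only in B128.

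That test, the interaction of organ and line, called 472 unigenes (1.6%). The leaf-root difference was higher in B128 for 146 (0.495%) and lower in B128 for 326 (1.11%). This count rested on single arrays: it was 186 and 202 without B47 leaf replicates 1 and 3, 192 and 215 without B47 root replicates 2 and 3, and 242 and 289 without B128 root replicates 1 and 3. The 5 named unigenes with the largest interaction in each direction are given below.

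In the first direction stood wall and terpene genes. Cellulose synthase-like protein B4 (UP12_6299) measured 13.73, 13.44 and 13.61 in B47 leaf and 12.93, 13.58 and 13.20 in B128 leaf, but 11.39, 11.23 and 11.35 in B47 root against 5.22, 4.40 and 4.49 in B128 root. The lines were alike in leaf and separate in root, and the interaction was 6.26 ± 0.32 (adjusted p = 1.41e-05), with 5.42 ± 0.39 for UP12_21712. For the sesquiterpene synthase UP12_4504, described as an alpha-humulene/beta-caryophyllene synthase, the separation was in leaf. It measured 6.36, 6.35 and 6.78 in B47 leaf and 10.86, 10.87 and 10.56 in B128 leaf, with all root arrays between 4.00 and 4.82. Its interaction was 4.39 ± 0.32, that of UP12_21212, with the same description, 3.23 ± 0.28, and that of the expansin UP12_20007 3.21 ± 0.50. The expansin's call was lost without any 1 of the 6 arrays named above, where limma's adjusted p lay between 0.0142 and 0.0186.

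In the second direction stood signalling genes with lower values in B128 leaf than in B47 leaf. The ethylene-responsive factor ERF017 (UP12_312) measured 12.87, 11.81 and 12.88 in B47 leaf, 3.90, 6.70 and 5.31 in B128 leaf, 13.19, 12.78 and 13.11 in B47 root and 13.39, 13.38 and 13.83 in B128 root. The organ difference was -0.51 in B47 and -8.23 in B128, an interaction of -7.73 ± 0.79 (adjusted p = 5.87e-04). DREB1D (UP12_15489), a factor of cold and dehydration responses in Arabidopsis, measured 14.00, 12.65 and 13.79 in B47 leaf and 7.69, 9.64 and 8.84 in B128 leaf, with an interaction of -5.67 ± 0.73. The ubiquitin ligase PUB22 (UP12_14588), the calcium sensor CML39 (UP12_14167) and a calmodulin (UP12_2558) had interactions of -5.97 ± 0.82, -5.93 ± 0.67 and -5.77 ± 0.73. The PUB22 call was lost without any 1 of the 4 B47 arrays named above (adjusted p of 0.0102 to 0.0112). In the 5 unigenes all 3 B128 leaf arrays lay below all 3 B47 leaf arrays.

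Several lists carried such line differences. All 3 aminocyclopropane-1-carboxylate synthases of the ethylene synthesis list, which make the ethylene precursor, were among the 472. UP12_19796 measured 12.01, 11.17 and 12.23 in B47 leaf and 9.00, 9.91 and 9.95 in B128 leaf, while the root arrays lay between 11.98 and 13.38, and its organ difference was -0.48 in B47 and -3.40 in B128. An aminocyclopropane-1-carboxylate oxidase (UP12_15529), which makes ethylene, was higher in leaf in both lines, at 6.50 and 6.85. Of the LEA and desiccation list 5 of 15 were called for the interaction, of the ABA list 3 of 19 and of the cell wall list 8 of 71. Over all unigenes of the study's tables the share was 7.22% (199 of 2757), above the 1.6% of all 29471. The study chose those unigenes partly on these same arrays, and some of them for drought regulation that differed between the lines. That choice favours a higher share in the tables and in the lists drawn from them, so the shares are no independent evidence.

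**Figure D4:**
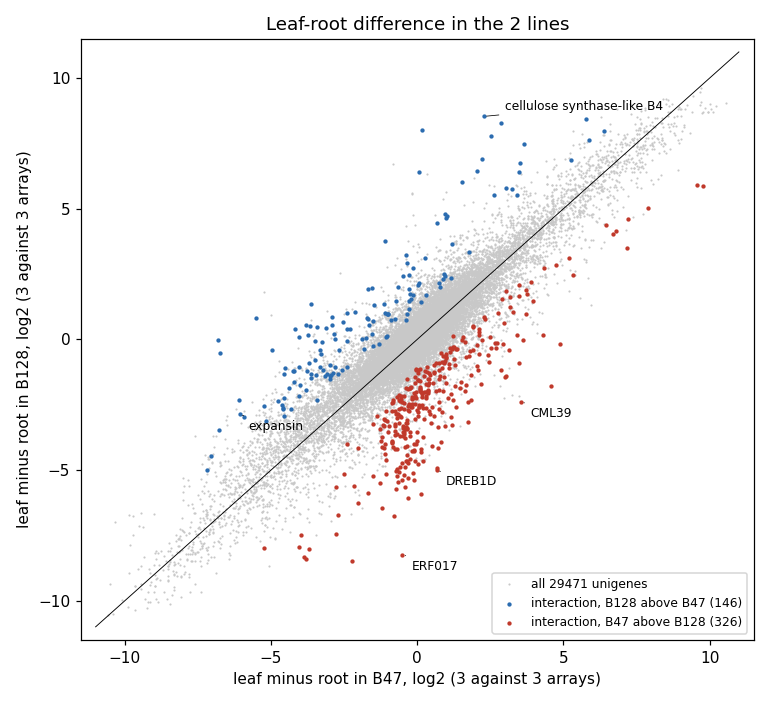
Leaf minus root difference of 29471 unigenes in B47 (x axis) and in B128 (y axis), each from 3 against 3 arrays on the log2 scale. Coloured points passed the interaction test, 146 with a higher difference in B128 (blue) and 326 with a lower one (red), and many red points lie near 0 in B47 and well below 0 in B128.

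The same organ comparison on the 12 drought arrays stands beside these values. The labels of the 6 drought root arrays name the root in one field and leaves in another, and the source field was followed. Leaf was higher for 5282 unigenes (17.9%) and root for 5242 (17.8%), together 35.7%. The 3857 unigenes higher in leaf under both conditions made up 68.9% of the well-watered and 73.0% of the drought calls, and the 3607 higher in root 66.8% and 68.8%. Opposite calls were made for 208 unigenes. Whether the organ difference itself changed with drought was not tested here, and the values are given side by side.

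These lists hold unigenes that the study selected as drought-regulated, so that their values differ between the watering conditions is built into the choice. Of the 2757 unigenes in its tables, 28.4% were higher in leaf and 33.5% in root under drought. Within the lists, light harvesting stayed leaf-higher for 23 of 23 members with a median of 2.92 in place of 5.55. Peroxidases were higher in root for 12 of 21 under drought with a median of -1.97, and iron and zinc acquisition for 6 of 19, with 6 higher in leaf and a median of -0.14. Phosphate starvation was higher in leaf for 11 of 13 with a median of 3.60, where 3 of 13 had been so in well-watered plants. Aquaporins were higher in root for 11 of 16 with a median of -2.18. Among single genes SWEET12 (UP12_17067) differed by -0.53 under drought, peroxidase 1 (UP12_19923) by -0.79 and Fe(2+) transport protein 1 (UP12_16535) by 3.85.

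**Figure D5:**
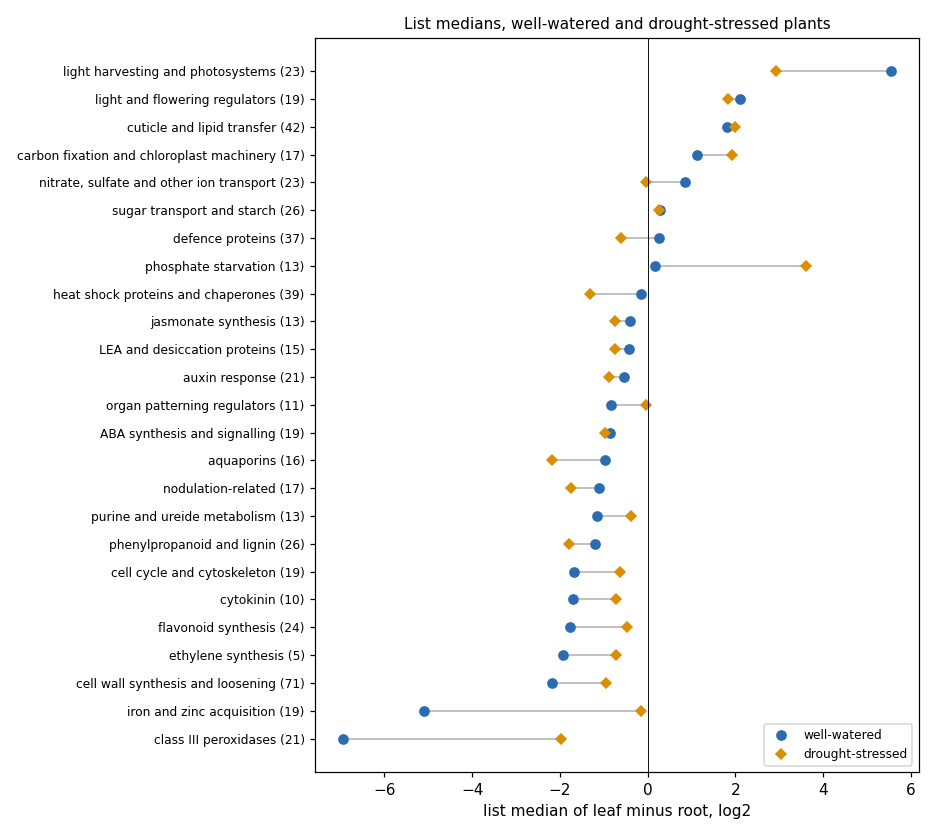
Median leaf minus root difference (x axis, log2) of each of 25 lists in well-watered plants (blue circles) and drought-stressed plants (orange diamonds), each from 6 leaf and 6 root arrays. Grey lines join the medians of a list, with the number of members in brackets. The peroxidase median lies at -6.95 and -1.97 and the phosphate starvation median at 0.16 and 3.60.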

How the data were processed

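RNA of 24 samples (Plant RNeasy, Cy3, 1 colour) was read on custom NimbleGen arrays with 4 probes per unigene. The authors normalized the arrays by quantiles and summarized the probes with RMA, and deposited linear intensity values, which were taken to log2 here without a pseudocount (lowest intensity 4.522, log2 2.177). The 8 yeast control entries were left out. The comparison of leaf and root was fitted with limma 3.58.1 in R 4.3.3 on the 12 well-watered arrays as 4 group means, averaged over B47 and B128, with Benjamini-Hochberg adjustment over 29471 unigenes. Calls required an FDR no higher than 0.01 and a change no smaller than 2-fold. Drought values came from a fit of all 24 arrays as 8 groups. Tested on simulated data with 200 changed unigenes, the fit for this comparison recovered 97% at a log2 change of 3 and 87% at 1.5. The simulation used normal noise, no line effect and far fewer changed unigenes than the 11004 called, so recovery in the real data may differ. Precision is limited by how few arrays there are, and each p-value sets a mean difference against the spread between these samples only.

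Unigenes were named by the study's descriptions. Members and lists were chosen with earlier results of these data known. Named unigenes were the 12 described ones with the largest differences in each direction, the 5 with the largest interaction in each direction, and members of 25 lists. The 12 were taken only from called unigenes without overlap between leaf and root arrays. Replicate numbers were not used to pair leaf and root samples in the main fit. Alternatives covered the normalization, filter, test, thresholds and array removal. Probe sequences and coordinates were not used here. Figures were drawn with matplotlib 3.10.9.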

Additional observations from a re-analysis of the deposited data

Results flagged for a closer look

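Results in which the 2 lines differed in their leaf-root difference, by the limma test of the interaction, were the following. In all, 472 of 29471 unigenes passed. Among the described unigenes the interaction (B128 minus B47, log2) was positive for the cellulose synthase-like B4 unigenes UP12_6299 (6.26) and UP12_21712 (5.42), for the humulene/caryophyllene synthase unigenes UP12_4504 (4.39) and UP12_21212 (3.23) and for the expansin UP12_20007 (3.21). It was negative for ERF017 (UP12_312, -7.73), PUB22 (UP12_14588, -5.97), CML39 (UP12_14167, -5.93), the calmodulin UP12_2558 (-5.77) and DREB1D (UP12_15489, -5.67). In UP12_21712 the B47 root arrays measured 10.64, 10.47 and 10.56 and the B128 root arrays 5.39, 4.13 and 4.96. Groups of 3 arrays were too small for the test of single outlying samples.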

How the results depend on the processing

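The organ difference of 586 unigenes, which include every list member and every unigene named for its size or interaction, was recomputed under each alternative on the well-watered arrays. Of the 427 called, none changed sign where it was recomputed, and leaving out the 25% of unigenes with the lowest mean kept 327 of them, all still called. In at least 1 alternative 97 lost the call, all of them under limma's treat, which tests against a 2-fold change, and 28 also in another one, 23 of these when 1 array was left out. Of the 159 not called, 22 gained a call in at least 1 alternative. Treat called 6844 unigenes between organs (3422 in each direction), 5602 in B47 and 5874 in B128. The filter on low means removed list members, and 12 light-harvesting unigenes were then called. Without 1 array the organ calls ranged from 10820 to 11122 (leaf-higher 5499 to 5687, root-higher 5321 to 5435), from 9474 to 10445 in B47 and from 10368 to 10897 in B128.

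The interaction count was less stable. With the unigenes whose leaf-root difference was higher in B128 and then in B47 in brackets, it was 1119 (460 and 659) with all 24 arrays in the fit, 954 (378 and 576) with array weights, 151 (42 and 109) without moderation, 1442 (627 and 815) at an FDR of 0.05 and 76 (21 and 55) with treat. Without 1 array it ranged from 186 to 543 (50 to 198 and 136 to 345). The cause was not tested.

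Whether a shared replicate number marks leaf and root of the same pot was not established. The paper took leaflets and roots from each plant. Leaf and root arrays of a number had residual correlations of -0.16 to 0.12, which with 3 arrays in a group cannot decide it. With the number as a fixed block the interaction count was 116 (33 and 83), of which 109 were shared with the 472. Of the 10 named interactions, 5 were lost under that block (UP12_20007, UP12_14588, UP12_14167, UP12_2558 and UP12_15489, adjusted p 0.013 to 0.025), and no other count of calls moved by over 1.5 times.

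Setting the yeast controls equal moved the median organ difference of all unigenes from -0.02 to 0.10 and the median interaction from 0.07 to 0.18. The share of interaction calls higher in B128 was 30.9%, and 38.9% under that scaling, 39.6% with array weights, 41.1% with all 24 arrays and 43.5% at an FDR of 0.05. The intensities came without a background measure, so dim unigenes could not be told from unexpressed ones.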

Other observations

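Single leaf arrays stood apart for small sets of unigenes. B128 leaf replicate 2 measured 10.05 for the MLP-like protein 43 unigene UP12_6035, while the other leaf arrays lay between 13.81 and 14.28 and the root arrays between 4.10 and 7.31. B128 leaf replicate 1 measured 10.62 for the lipid-transfer-like UP12_2304, where the leaf median was 13.63. Neither array was removed, and the cause was not tested.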
